A study of Mus musculus with 28 samples.

Results

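The mutant effect of a gene is its mean log2 signal in mutant skin minus that in control skin, and the comparison described here is how this effect differed between postnatal day 15 (P15) and postnatal day 10 (P10). It was taken as an interaction, (P15 mutant minus P15 control) minus (P10 mutant minus P10 control), over 28 of 28 arrays of the series. RNA came from dorsal skin of mice 10 or 15 days old on a mixed C57/BL6 and 129Ola background, hybridised to Illumina BeadChips, where a probe is read as the average brightness of its beads. Mutants carried the K14-cre transgene together with the Gab1fl conditional allele, and the labels name the other mice controls without giving their genotype. K14-cre acts in basal keratinocytes of epidermis and follicle, so fibroblasts, fat cells, melanocytes and muscle of the same skin should keep the intact allele. The cells that lost it were not measured here, and no source used here gives the exons that the allele loses. There were 10 controls and 6 mutants at P10, and 6 of each at P15.

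The arrays lay on 4 slides. Slides 1 and 2 held the P10 mutants and P10 controls 5 to 10, whereas slides 3 and 4 held all P15 arrays and P10 controls 1 to 4. With the slide as a term, the P10 effect is set by slides 1 and 2, the P15 effect by slides 3 and 4, and the 4 further P10 controls link the ages. The age of the mutant effect and the pair of slides therefore cannot be told apart, and neither can genotype and position, since mutants lay at the same 3 positions of every slide. Whether replicates are separate animals is not stated, so the p-values rest on variation among these arrays, which may be technical. Detected probes numbered 8836 to 13610 per array, and median raw signals were 105 to 133 in P10 mutants, 83.3 to 113 in the P10 controls beside them, 56.7 to 68.0 in P15 controls and 53.2 to 172 in P15 mutants, where replicate 5 held both the fewest probes (8836) and the highest median (172). Skin markers were present, with 18 of 21 listed suprabasal genes and 28 of 56 keratin-associated protein genes bright enough to be tested.

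Gab1 is a docking protein that recruits SHP2 and PI3 kinase to activated receptors and passes growth factor signals to the ERK cascade. In mouse back skin the first wave of hair growth runs on after birth and then gives way to follicle regression (catagen). While follicles grow, matrix cells at their base divide, melanocytes in the bulb hand pigment to the shaft, shaft keratins and keratin-associated proteins are made in the differentiating cells above, and the fat layer beneath thickens. Gab1 itself was lower in mutants at both ages. Its log2 signal was 11.02, 11.25 and 11.64 (lowest, median and highest of 6) in P10 controls of slides 1 and 2 and 9.85, 9.97 and 10.17 in P10 mutants, against 11.29, 11.63 and 11.85 in P15 controls and 9.91, 10.34 and 10.54 in P15 mutants. The groups did not overlap at either age, and the effect was -1.31 at P10 (limma adjusted p = 1.3e-08) and -1.33 at P15 (limma adjusted p = 1.9e-09). The difference between these effects was -0.02 (SE 0.16, limma adjusted p = 0.97).

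Many genes responded to the mutation differently at the 2 ages. Of 9045 genes tested, 353 (3.9%) differed in mutant effect between P15 and P10 at a Benjamini-Hochberg adjusted p below 0.05 in limma. Mutant skin moved upward between the ages relative to control skin for 175 of them (1.93%) and downward for 178 (1.97%), and 39 of the former (0.431%) and 78 of the latter (0.862%) differed at least 2-fold. The mutant effect appeared for 183 genes (2.02%), meaning that it passed the limma test at P15 and not at P10, and 113 of these were higher (1.25%) and 70 lower (0.774%) in P15 mutants. It disappeared for 101 genes (1.12%), of which 71 had been higher (0.785%) and 30 lower (0.332%) in P10 mutants. A further 26 genes (0.287%) reversed, passing at both ages with opposite signs, 15 from higher to lower (0.166%) and 11 from lower to higher (0.122%). In 27 genes (0.299%) the effect kept its sign and grew, in 2 genes (0.0221%), Slc23a3 and Ppif, it shrank, and in 14 genes (0.155%) neither age passed alone. By comparison the mutant effect passed for 1705 genes (18.9%) at P10 and 1810 (20%) at P15, and its median over all genes was -0.01 and 0.02. The count of 353 became 228 without P10 mutant 1, 231 without P10 control 10, 234 without P10 control 6 and 611 without P15 mutant 5. It was 126, 1308, 66 and 159 in fits to slides 1 and 3, 1 and 4, 2 and 3, and 2 and 4 alone.

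**Figure D1:**
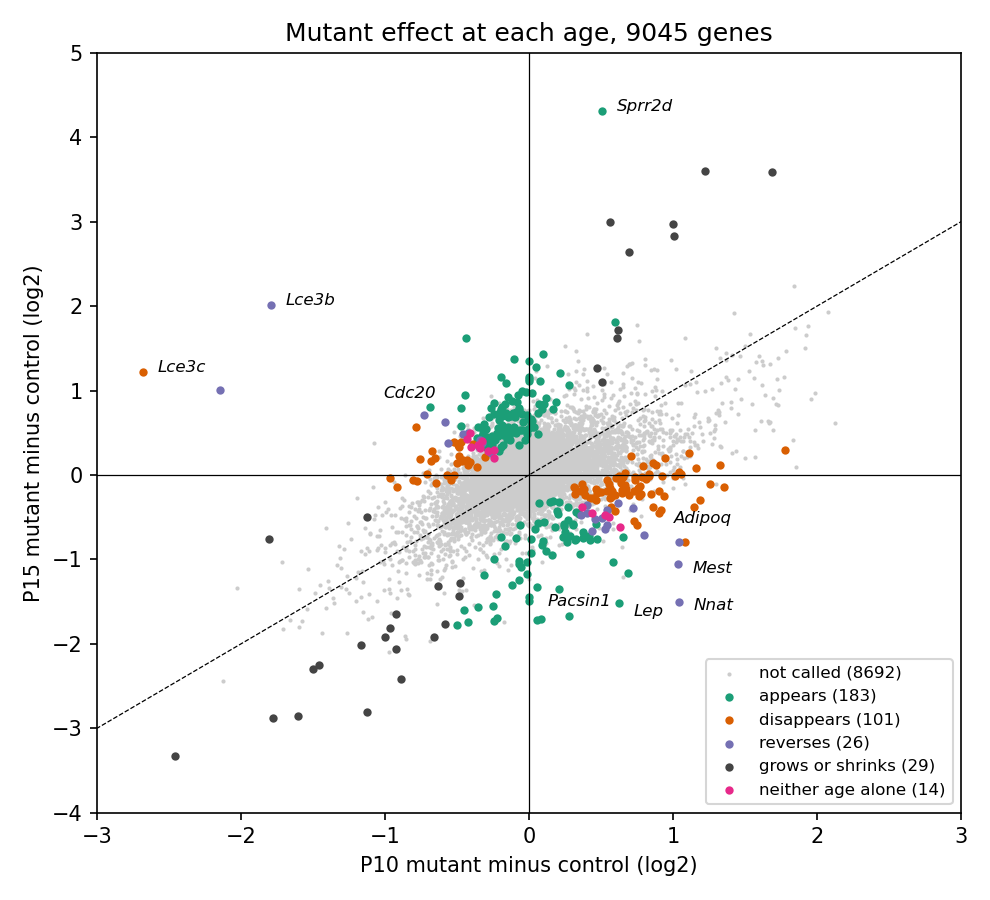
Each point is 1 of 9045 genes, with its mutant effect (log2) at P10 on the x axis and at P15 on the y axis. Colours mark the 353 genes whose effects differed, and the dashed line marks equal effects: Sprr2d lies far above it, Lce3b and Lce3c lie at the upper left, and Nnat and Mest lie at the lower right, higher in mutants at P10 and lower at P15.

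The interaction is also the difference between the age changes of mutants and controls, which use the same arrays and are given here as values beside it. From P10 to P15, 2012 genes (22.2%) changed in controls and 1121 (12.4%) in mutants, where 562 rose (6.21%) and 559 fell (6.18%). Which count was greater depended on the setting, with 3677 in controls against 4112 in mutants without the slide term, 2162 against 2304 with array weights, 1219 against 1525 on slides 1 and 3 alone and 1756 against 1983 on slides 1 and 4 alone. Of the 175 genes that moved upward, 90 fell and 7 rose with age in controls, while 3 fell and 51 rose in mutants, with median age changes of -0.41 and 0.37. Of the 178 that moved downward, 38 fell and 45 rose in controls, while 109 fell and 0 rose in mutants, with medians of 0.03 and -0.88. Among the 113 genes whose effect appeared as higher in mutants, 71 fell with age in controls. The age change of mutants carries a larger error than that of controls because it passes through the P10 controls on both pairs of slides, so a count of 0 in mutants is read together with the interaction.

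**Figure D2:**
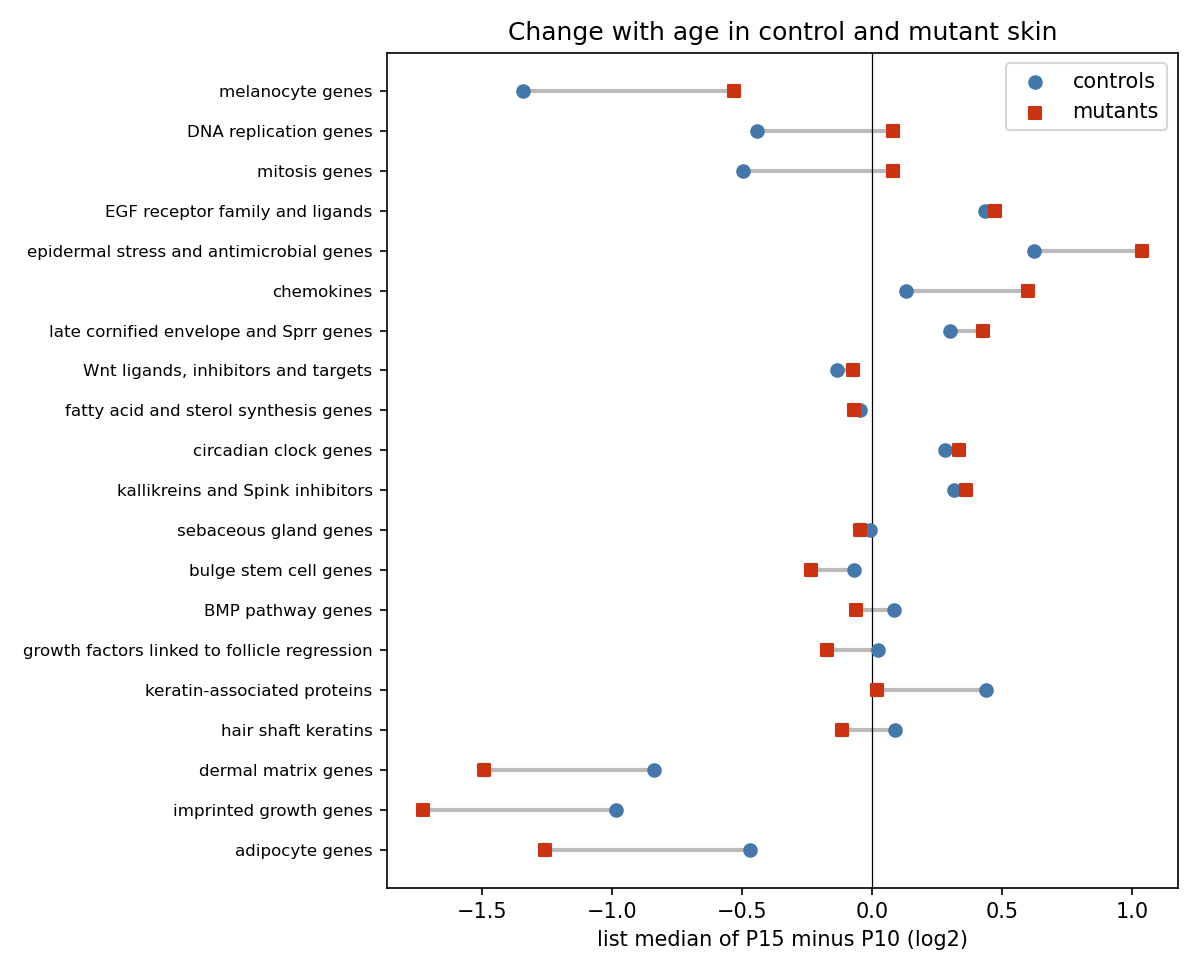
The x axis is the median over a list's tested genes of the P15 minus P10 difference (log2), in controls (circles) and mutants (squares), for the 20 lists with a called member. DNA replication and mitosis genes had medians of -0.44 and -0.50 in controls and 0.08 and 0.08 in mutants, and adipocyte and dermal matrix genes fell further in mutants than in controls.

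Many genes of dividing cells fell with age in control skin, and at P15 most of those listed were higher in mutants. Of 37 DNA replication genes tested, 10 (27%) moved upward relative to controls and 0 downward, beside 1.93% and 1.97% of all genes, and the list's median difference between ages was 0.59 against 0.01 for all genes. Of 26 mitosis genes, 8 (30.8%) moved upward and 0 downward, with a median of 0.54. At P10 the median mutant effects of these lists were -0.04 and -0.07, and at P15 they were 0.53 and 0.50, where 26 of the 37 and 17 of the 26 were higher in mutants (9.68% of all genes). In controls 20 of the 37 and 15 of the 26 fell with age (10.6% of all genes), with medians of -0.44 and -0.50. In mutants 0 of either list fell or rose, with medians of 0.08 and 0.08. Fewer dividing cells and less RNA per cell cannot be told apart in whole skin, here and for every cell type below.

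Cdc20, which activates the ubiquitin ligase that ends mitosis, had log2 signals of 9.64, 10.05 and 10.30 in P10 controls, 9.49, 9.80 and 9.95 in P10 mutants, 8.88, 9.14 and 9.32 in P15 controls and 9.59, 9.86 and 10.19 in P15 mutants. The P10 groups overlapped, and all 6 P15 mutants lay above all 6 P15 controls. The effect went from -0.26 to 0.79 (difference 1.05, SE 0.16, limma adjusted p = 0.00054). Birc5, or survivin, which guides chromosome attachment and cell division, was at 8.32, 8.77 and 8.95 in P15 controls and 9.08, 9.47 and 9.72 in P15 mutants, and its effect went from -0.09 to 0.75 (limma adjusted p = 0.0032). For Cdca3, a trigger of mitotic entry, the effect was -0.17 at P10 and 0.74 at P15 (limma adjusted p = 0.0029). Kif15, a spindle motor, went from 0.00 to 1.14 (limma adjusted p = 0.0069), and P15 mutants lay between 8.12 and 8.89, above P15 controls between 6.63 and 7.59. For all 4 genes the P15 groups did not overlap. The calls of Cdca3 and Kif15 ended without the slide term, and that of Cdca3 also with the slide as a random block.

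Apart from Pcna, the replication and repair genes given here had upward differences between the ages. Mcm10, which helps to start replication forks, reversed. Its log2 signals were 8.20, 8.93 and 9.18 in P10 controls, 7.86, 8.43 and 8.75 in P10 mutants, 7.80, 8.17 and 8.38 in P15 controls and 8.23, 8.62 and 8.98 in P15 mutants, and the groups overlapped at both ages. Its effect was -0.42 (limma adjusted p = 0.028) and then 0.49 (limma adjusted p = 0.011), and the difference of 0.92 had a limma adjusted p of 0.0069. The helicase subunits Mcm4 and Mcm5 went from -0.33 to 0.46 and from -0.21 to 0.66 (limma adjusted p = 0.0073 for each), again with overlapping groups. Ung, which removes uracil from DNA, fell 2.21-fold with age in controls, and its effect went from -0.15 to 0.93 (limma adjusted p = 0.0014) with no overlap at P15. Rad54l, a recombination repair factor, reversed from -0.46 to 0.49 (limma adjusted p = 0.0032). The cyclin D1 gene Ccnd1, on the Wnt list, went from -0.13 to 0.42. The single replication gene with a negative difference was Pcna, the sliding clamp, at 1.67 and 1.32, and it was not called.

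The counts of these lists moved with single arrays. The 10 replication genes became 6 without P10 mutant 1, P10 mutant 2 or P10 control 10, 5 without P10 mutant 4 and 16 without P15 mutant 5. The 8 mitosis genes became 5 without P10 mutant 1, 2 or 4, P10 control 10, P15 mutant 2 or P15 control 1 or 2, and 15 without P15 mutant 5. In fits to slides 1 and 3, 1 and 4, 2 and 3, and 2 and 4 alone, the replication list had 1, 11, 0 and 5 genes called higher with medians of 0.52, 0.43, 0.61 and 0.63.

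The proximal promoters of these genes were searched for motifs known from cell cycle genes, the CCAAT box and the element TTTGAA or TTCGAA, on both strands of the 250 bases before the start (RefSeq, GRCm38.p6, 1 window a gene, 7303 of the tested genes). CCAAT was present in 9 of the 14 called replication and mitosis genes that had a window (64.3%), in 32 of all 53 tested genes of both lists with a window (60.4%) and in 36.7% of all promoters. TTTGAA or TTCGAA was present in 4 of the 14 (28.6%), 12 of the 53 (22.6%) and 12.2% of all. TTTCCCGC, an E2F-type site, was found in 0 of the 14, 3 of the 53 (5.66%) and 1.63% of all promoters. TATAAA was found in 0 of the 14, 3 of the 53 (5.66%) and 7.41% of all. For motifs this rare, 0 of 14 promoters says little. The 100 bases before the start are shown for the 4 called genes of smallest p of the difference, all of which fell with age in controls, and capitals mark a match to any of these motifs on either strand.
Cdc20 (chr4:118437344-118437443, minus strand): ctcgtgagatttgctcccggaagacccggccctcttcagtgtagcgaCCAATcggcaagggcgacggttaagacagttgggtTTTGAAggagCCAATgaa
Cdca3 (chr6:124830076-124830175, plus strand): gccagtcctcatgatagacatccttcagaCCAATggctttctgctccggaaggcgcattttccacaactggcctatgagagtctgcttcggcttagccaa
Birc5 (chr11:117849137-117849236, plus strand): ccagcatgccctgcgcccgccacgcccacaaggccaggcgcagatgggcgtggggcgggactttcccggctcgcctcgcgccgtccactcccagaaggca
Mcm10 (chr2:5012792-5012891, minus strand): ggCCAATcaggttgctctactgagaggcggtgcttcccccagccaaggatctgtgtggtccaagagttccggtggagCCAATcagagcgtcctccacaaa
Cdc20 and Mcm10 each hold 2 CCAAT boxes in this stretch, Cdca3 holds 1 and Birc5 holds 0, and Cdc20 alone holds TTTGAA. A match describes the letters and is not a bound site.

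Most pigment cell genes fell with age in controls, and at P15 most were higher in mutants. Of 13 melanocyte genes tested, 12 fell with age in controls (10.6% of all genes) and 1 in mutants (6.18%), with median age changes of -1.34 and -0.53. The median mutant effect was 0.03 at P10 and 0.78 at P15. At P15 10 were higher (9.68% of all genes) and 1, the transcription factor gene Mitf at -0.75, was lower (10.3%). The difference between ages passed upward for Dct and Mlana (15.4% of the list, beside 1.93% of all genes), and 12 of 13 differences were positive. Dct, an enzyme of melanin synthesis, had log2 signals of 12.06, 12.36 and 12.64 in P10 controls, 12.15, 12.32 and 12.62 in P10 mutants, 10.27, 10.57 and 11.06 in P15 controls and 11.43, 11.62 and 12.31 in P15 mutants. P10 groups overlapped, and at P15 every mutant was above every control, 2.16-fold on average. Its effect went from 0.00 to 1.11 (difference 1.11, SE 0.21, limma adjusted p = 0.003). Mlana, a melanosome protein, went from -0.05 to 0.99 (limma adjusted p = 0.024), and this call ended without P10 mutant 4 (limma adjusted p = 0.0505) and without the slide term. The list had 4 called genes without P15 mutant 5. Other pigment genes had differences of the same sign that did not pass, among them Tyr, the rate-limiting melanin enzyme (-0.12 and 0.75), and Oca2, a melanosome channel (0.12 and 1.30).

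Most dermal matrix genes were higher in P10 mutants, and fewer passed the test at P15. Of 25 tested, 20 were higher and 0 lower at P10 (9.49% and 9.36% of all genes). At P15, 5 were higher and 3 lower (9.68% and 10.3% of all genes), and the median effect went from 0.65 to -0.01. The difference between ages passed for 10 (40%), all downward, beside 1.97% of all genes. Of these 10, 7 disappeared, 2 reversed and 1 appeared. Sparc, a collagen-binding matrix protein, had log2 signals of 12.85, 13.13 and 13.51 in P10 controls, 13.66, 13.87 and 14.13 in P10 mutants, 12.42, 12.49 and 12.73 in P15 controls and 12.13, 12.33 and 12.96 in P15 mutants. The P10 groups were separate and the P15 groups overlapped, with effects of 0.73 and -0.06 (difference -0.80, SE 0.18, limma adjusted p = 0.012). Mfap4, a microfibril protein, reversed, at 11.26, 11.55 and 11.88 in P10 controls, 12.11, 12.35 and 12.56 in P10 mutants, 10.27, 10.73 and 10.96 in P15 controls and 9.09, 10.17 and 10.80 in P15 mutants. Its effects of 0.80 (limma adjusted p = 0.0029) and -0.71 (limma adjusted p = 0.0061) differed by -1.51 (SE 0.26, limma adjusted p = 0.0015), although the P15 groups overlapped.

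Col1a1, a chain of the main dermal collagen, reversed from 0.53 (limma adjusted p = 0.0497) to -0.64 (difference -1.17, SE 0.27, limma adjusted p = 0.012), and fell 2.09-fold with age in controls and further in mutants. Col3a1, a second fibrillar collagen, was 3.43-fold higher in P10 mutants with no overlap, and at P15 its effect was 0.29 (difference limma adjusted p = 0.033, a call that ended on leaving out any of 13 arrays, with adjusted p from 0.0504 to 0.0713). Those 13 arrays were P10 controls 5, 6, 9 and 10, P10 mutants 1, 2 and 6, P15 controls 2, 3 and 5 and P15 mutants 1, 2 and 3. Lum (1.01 and -0.02), Pcolce (0.92 and -0.01), Eln (0.57 and -0.38), Col5a1 (0.56 and -0.11) and Col6a2 (0.95 and 0.20), which encode matrix proteins or a collagen-processing enhancer, disappeared, and Ogn (0.46 and -0.58) appeared as lower. Dcn, by contrast, was at 0.29 and 0.49 and did not pass. Matn4, a matrilin, disappeared from 1.15 to -0.38 (limma adjusted p = 0.007), with separate groups at P10. The list's 10 calls became 6 without P10 mutant 1 or 2, 4 without P10 control 6, and 6 with median scaling in place of quantile normalization, under which the call of Sparc ended.

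Many fat cell genes were also higher in P10 mutants and not in P15 mutants. All 16 adipocyte genes tested had a negative difference between ages, and 6 (37.5%) passed, beside 1.97% of all genes downward. The list's median difference was -0.85. At P10 10 of the 16 were higher in mutants and 0 lower, at P15 1 was higher and 4 lower, and the median effect was 0.65 and then -0.16. Of all genes 9.49% were higher and 9.36% lower at P10, and 9.68% and 10.3% at P15. With age 5 fell in controls and 10 fell in mutants (10.6% and 6.18% of all genes), with medians of -0.47 and -1.26. Adipoq, the adipocyte hormone adiponectin, was at 11.19, 11.44 and 12.21 in P10 controls, 12.20, 12.43 and 13.01 in P10 mutants, 10.11, 10.63 and 11.10 in P15 controls and 9.55, 10.26 and 10.45 in P15 mutants. Its P10 groups touched at 1 array and its P15 groups overlapped, and it fell 1.85-fold with age in controls and 4.72-fold in mutants. The effects of 0.90 and -0.45 differed by -1.35 (SE 0.25, limma adjusted p = 0.0026). Lipe, a lipase that releases stored fat, went from 0.92 to -0.42 (limma adjusted p = 0.0031) and Plin4, a lipid droplet coat protein, from 0.85 to -0.22 (limma adjusted p = 0.0077). The call of Plin4 ended with median scaling, and that of Lipe when its probes were averaged.

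Lep, the fat hormone leptin, was at 9.93, 10.49 and 11.73 in P10 controls, 10.79, 11.18 and 11.85 in P10 mutants, 10.04, 10.35 and 11.00 in P15 controls and 6.42, 9.31 and 10.04 in P15 mutants. Every P15 mutant lay below every P15 control, by little at the nearest pair, replicate 1 lay far below the rest, and the effect went from 0.63 to -1.52 (limma adjusted p = 0.03). This call ended on leaving out any of 8 arrays, namely P10 controls 6, 9 and 10, P10 mutants 4 and 6 or P15 controls 1, 2 and 5 (limma adjusted p from 0.0504 to 0.0622). Pparg, the master regulator of fat cell formation, went from 0.38 to -0.71 and Pnpla2, the first lipase of fat breakdown, from 0.66 to -0.12, and both passed. Sncg, a synuclein that fat cells make, reversed from 1.04 (limma adjusted p = 0.0054) to -0.79 (limma adjusted p = 0.029), and fell 1.94-fold with age in controls and 6.90-fold in mutants. Car3, a carbonic anhydrase abundant in fat and slow muscle, went from 1.08 to -0.79 (limma adjusted p = 0.011) and fell 13.7-fold in mutants against 3.75-fold in controls. Ghr, the growth hormone receptor, reversed from 0.54 to -0.60 (limma adjusted p = 0.0026), a call that ended when its probes were averaged.

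Muscle genes and array brightness moved with these groups at P10. Of 29 striated muscle genes 17 were higher in P10 mutants and 2 in P15 mutants, beside 9.49% and 9.68% of all genes. Their median effects were 1.56 and 1.01, and the difference between ages passed for 0 (26 of 29 were negative). The muscle score, the mean of the genes' log2 signals after centring each on its mean over all arrays, ranged from -0.43 to 2.26 in P10 controls, 1.11 to 2.18 in P10 mutants, -2.33 to 0.45 in P15 controls and -2.51 to 1.62 in P15 mutants. With this score as a covariate the dermal matrix list still had 10 called genes and the adipocyte list 6, and with the number of detected probes as a covariate they had 9 and 6. Myl4, a muscle myosin light chain and among the 5 largest differences of measured genes that were higher at P10 and disappeared, was at 1.36 and -0.14 (limma adjusted p = 0.007). Mast cell genes were higher at both ages (6 of 6 tested at P10, 3 of 6 at P15, median effects 0.82 and 0.75), as were macrophage genes (6 and 8 of 12, medians 0.73 and 0.97). In either list 0 differed between ages, beside 3.9% of all genes. The part of muscle and of brightness in the results beyond these values was not tested.

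Among growth genes expressed from 1 parental copy, 3 of 9 tested (33.3%) differed between the ages, beside 3.9% of all genes. Of these 3, Nnat and Mest reversed from higher to lower and Dio3 was lower at both ages. Of the 9 genes 6 were higher and 1 lower in P10 mutants, 1 was higher and 3 lower in P15 mutants, and 7 fell with age in controls and 7 in mutants. Of all genes 9.49% were higher and 9.36% lower at P10, and 9.68% and 10.3% at P15. With age 10.6% of all genes fell in controls and 6.18% in mutants. Nnat, a small membrane protein of the endoplasmic reticulum, had the largest downward difference of the experiment among genes past the test. Its log2 signal was 6.40, 6.77 and 7.32 in P10 controls, 7.21, 7.76 and 8.65 in P10 mutants, 6.76, 7.05 and 7.13 in P15 controls and 4.92, 5.54 and 6.18 in P15 mutants. P10 mutants were higher by 1.04 (limma adjusted p = 0.0011), and its probe was above background in 6 of 6 P15 controls and 0 of 6 P15 mutants, which were at least 1.68-fold lower. Here and below "at least" marks a bound, for which an undetected probe was raised on each array to the dimmest detected signal there unless it was already brighter. Where the brighter group also had undetected arrays, the same setting raises that group too, and the value is not a bound. The fitted difference between ages was -2.55 (SE 0.30, limma adjusted p = 1.5e-05), a value that includes background signal in P15 mutants.

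Mest, a hydrolase-like protein of mesoderm and growing fat, was at 8.70, 9.30 and 9.56 in P10 controls, 9.75, 10.18 and 10.87 in P10 mutants, 5.22, 7.16 and 8.10 in P15 controls and 4.62, 5.87 and 6.79 in P15 mutants. It was detected in 4 of 6 P15 controls and 2 of 6 P15 mutants. Its effect reversed from 1.04 (limma adjusted p = 0.0097) to -1.06 (limma adjusted p = 0.0071), with a difference of -2.10 (SE 0.39, limma adjusted p = 0.0028), and the P15 groups overlapped. Dio3, which inactivates thyroid hormone, went the other way, being lower in mutants at both ages and more so at P15. Detection was complete in controls and reached 3 of 6 P10 mutants and 2 of 6 P15 mutants, and was 2.61-fold lower at P10 and 4.91-fold lower at P15 with undetected arrays set as above. Its effects of -1.60 and -2.86 differed with a limma adjusted p of 0.0032, and the call of Dio3 ended with median scaling. Igf2 (1.06 and 0.23), Dlk1 (1.45 and 0.72) and Cdkn1c (0.68 and -0.01) had negative differences that did not pass. The list had 5 called genes without P10 control 7.

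**Figure D3:**
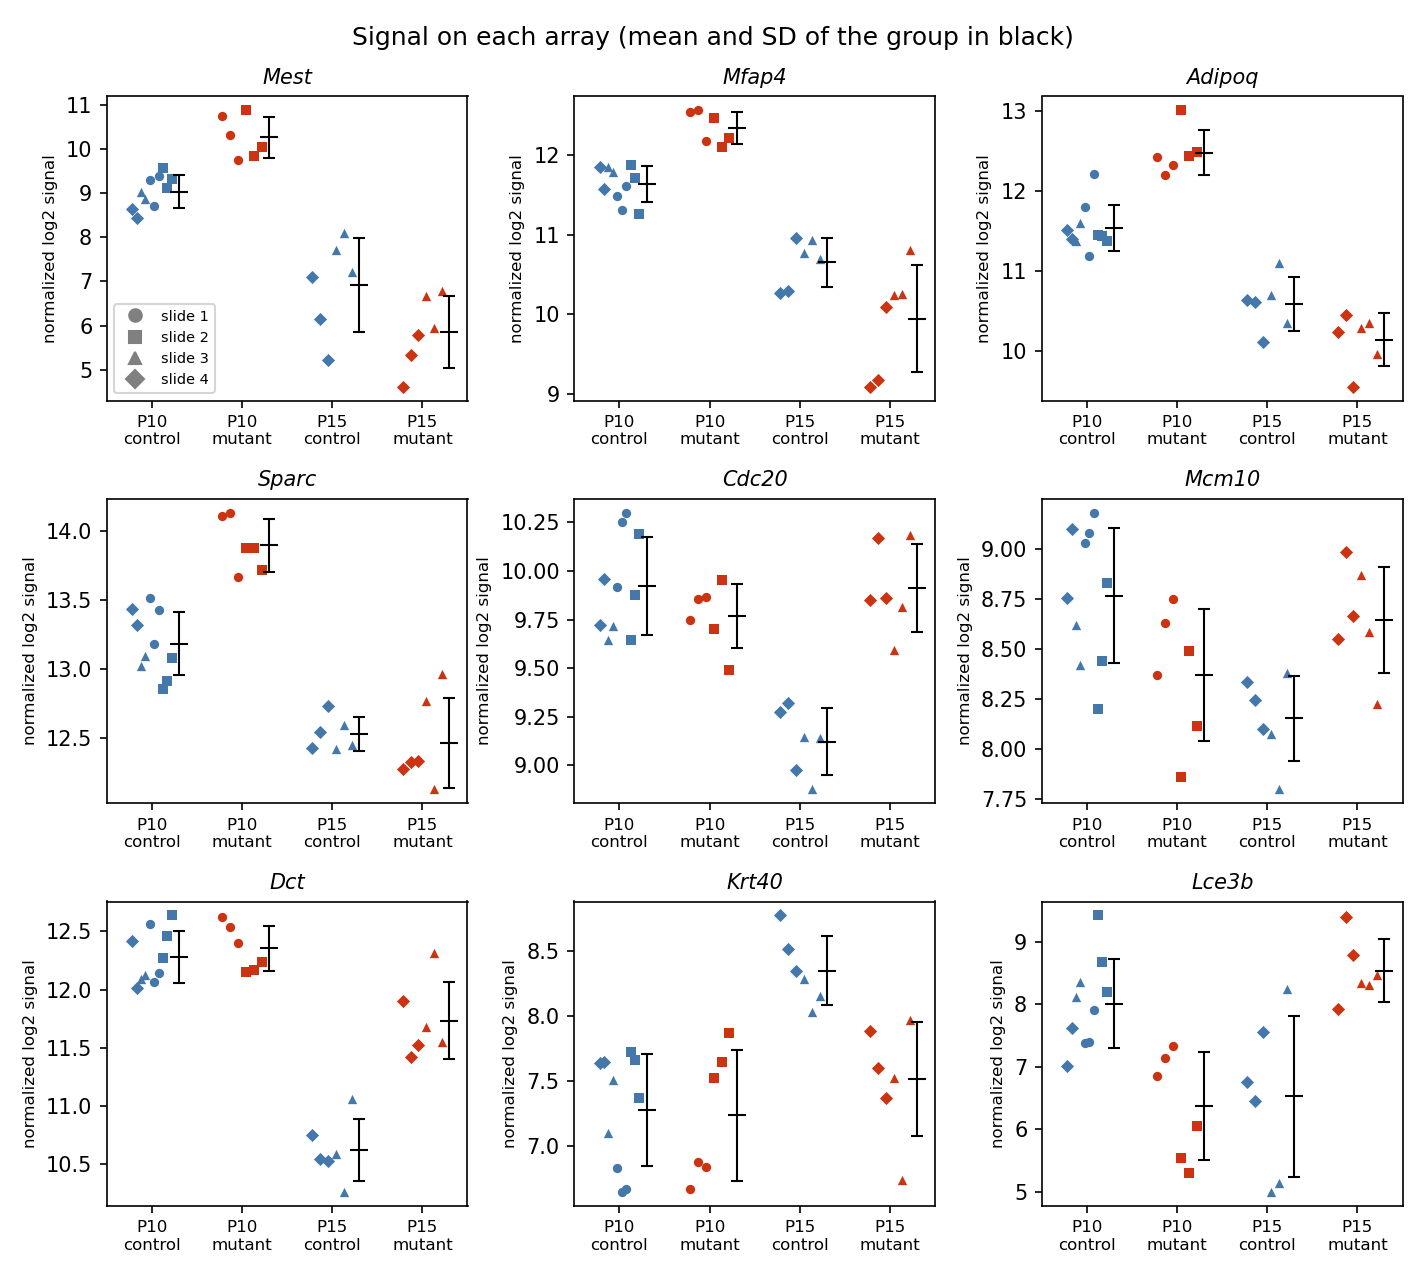
Each panel gives the normalized log2 signal of 1 gene (y axis) on each of the 28 arrays by group, with controls in blue, mutants in red and the symbol showing the slide, and the bars are the group's mean and SD (all 10 P10 controls). Mest, Mfap4, Adipoq and Sparc are higher in P10 mutants than in P10 controls and no longer so at P15. Cdc20 and Mcm10 fall in P15 controls and not in P15 mutants, and Dct falls in both, less far in mutants. Krt40 rises in P15 controls, and Lce3b is low in P10 mutants and high in P15 mutants.

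Some hair shaft genes moved downward relative to controls between the ages, and 0 of those listed moved upward past the test. Of 28 keratin-associated protein genes, which crosslink the shaft's keratin filaments, 7 (25%) passed downward and 0 upward, beside 1.97% and 1.93% of all genes. The list's median difference was -0.32. Of the 28 genes 13 were lower and 3 higher in P10 mutants, and 20 were lower and 0 higher in P15 mutants. Their median effects were -0.40 and -0.66. Of all genes 9.36% were lower and 9.49% higher at P10, and 10.3% and 9.68% at P15. With age 13 rose and 3 fell in controls, while 6 rose and 5 fell in mutants. Of all genes 11.6% rose and 10.6% fell in controls, and 6.21% and 6.18% in mutants. Krtap31-2 was at 12.69, 12.84 and 13.16 in P10 controls, 11.64, 11.98 and 12.22 in P10 mutants, 11.48, 11.87 and 12.33 in P15 controls and 9.04, 9.84 and 10.51 in P15 mutants, separate at both ages. Its deficit grew from -0.93 to -2.06 (limma adjusted p = 0.0082), and Krtap31-1 reached -1.92 at P15. Krtap21-1 (0.38 and -0.75), Krtap4-2 (-0.50 and -1.77) and Krtap6-1 (0.21 and -1.36) appeared as lower. Krtap6-1 was detected in 3 of 6 P15 controls and 0 of 6 P15 mutants, which were 1.15-fold lower with undetected arrays set as above.

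Among the called members of the family, the exceptions were Krtap19-3 (0.86 and -0.37) and Krtap19-5 (1.19 and -0.29), which were higher in P10 mutants and lost that excess. The difference of Krtap19-5 ranged from -2.76 to -0.21 over the alternatives, and its call ended on slides 2 and 3 and on slides 2 and 4 alone. Krtap4-1 (-1.48 and -1.40), Krtap4-13 (-1.27 and -1.35) and Krtap1-4 (-0.87 and -0.86) were lower at both ages, and their differences between ages did not pass. Members of this family are close in sequence, so probes of 1 gene may read its copies. Among 10 hair shaft keratins 3 passed, all downward, beside 1.97% of all genes, and all 10 differences were negative. Krt40, a hair keratin, was at 6.65, 7.10 and 7.72 in P10 controls, 6.67, 7.20 and 7.87 in P10 mutants, 8.03, 8.31 and 8.77 in P15 controls and 6.74, 7.56 and 7.97 in P15 mutants. P15 controls all lay above P15 mutants, the P10 groups overlapped, and Krt40 rose 1.84-fold with age in controls against a log2 age change of -0.04 in mutants (effects 0.09 and -0.83, difference limma adjusted p = 0.0098). Krt87 went from 0.01 to -0.92 and Krt82, a cuticle keratin, from 0.57 to -0.26 (limma adjusted p = 0.011 for each). The calls of all 3 keratins ended without the slide term, and that of Krt82 also with median scaling. Genes of the inner root sheath (7 tested), the basal and outer root sheath (8) and the hair matrix regulators (15) had 0 called. With 3.9% of all genes called, 0 in lists this short is near that share.

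Single signalling genes differed between the ages, some of them outside the lists. Bmp3, a ligand that antagonises other bone morphogenetic proteins, was at 7.30, 7.61 and 8.11 in P10 controls, 7.20, 7.69 and 8.34 in P10 mutants, 8.49, 8.65 and 9.16 in P15 controls and 6.29, 7.05 and 7.49 in P15 mutants. The P10 groups overlapped and the P15 groups were separate, and the effect went from 0.08 to -1.70 (difference -1.78, SE 0.27, limma adjusted p = 0.00039). Bmpr1b, a BMP receptor, went from -0.24 to -1.73 (limma adjusted p = 0.0019), and Chrd, the BMP antagonist chordin, went from 0.42 to -0.77 (limma adjusted p = 0.0073), detected in 4 of 6 P15 controls and 1 of 6 P15 mutants. Chrd was the 1 of 12 listed BMP pathway genes (8.33%) to pass, beside 3.9% of all genes. Bmp3 and Bmpr1b were not on that list. Igfbp3, which binds insulin-like growth factors, went from 0.36 to -0.93 (limma adjusted p = 0.0032). It was the 1 called of 11 growth factor genes linked to follicle regression (9.09%), and its call ended without the slide term.

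Of 18 Wnt ligands, inhibitors and targets 4 (22.2%) passed upward, beside 1.93% of all genes. Wif1, a secreted Wnt inhibitor, was at 6.19, 6.31 and 6.91 in P15 controls and 7.08, 7.23 and 7.85 in P15 mutants, and its effect went from -0.08 to 0.95 (limma adjusted p = 0.0053). Sfrp1, another inhibitor, went from -0.08 to 0.87 (limma adjusted p = 0.021). Rspo3, which strengthens Wnt signals, was detected in 0 of 6 P15 controls and 4 of 6 P15 mutants. P15 mutants were 1.12-fold higher with undetected arrays set as above, which is not a bound. The fitted effects of -0.10 and 1.38 (difference limma adjusted p = 0.0073) include background signal. These 3 genes also differed between slides within P10 controls. Wif1 was at 8.14 to 8.85 on slides 1 and 2 and 7.05 to 7.39 on slides 3 and 4, Rspo3 at 6.35 to 7.55 and 5.10 to 6.03, and Sfrp1 at 7.52 to 8.09 and 6.84 to 7.39. The calls of all 3 ended without the slide term and with the slide as a random block, which left 1 called gene in the list, and that of Rspo3 ended with median scaling too.

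Barrier genes of the epidermis were among those with large upward differences. Sprr2d, which encodes a small proline-rich precursor of the horny layer, was at 4.60, 4.81 and 5.71 in P10 controls, 4.86, 5.28 and 6.30 in P10 mutants, 4.58, 5.19 and 6.37 in P15 controls and 8.02, 9.40 and 11.57 in P15 mutants. It was detected in 0 of 6 P10 controls, 2 of 6 P10 mutants, 1 of 6 P15 controls and 6 of 6 P15 mutants, which were 9.73-fold higher with undetected arrays set as above. The fitted effects of 0.51 and 4.31 differed by 3.80 (SE 0.49, limma adjusted p = 4.7e-05), a value that includes background signal in the other 3 groups. Sprr2f, its close relative, went from -0.44 to 1.63 (limma adjusted p = 0.0019), was separate at P15 and was detected in 3 of 6 P10 controls and 1 of 6 P10 mutants. These genes are near-identical copies in part, so a probe of 1 may read another.

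Lce3b and Lce3c, late cornified envelope proteins, were low in P10 mutants and not in P15 mutants. Lce3b was at 7.38, 8.05 and 9.42 in P10 controls, 5.30, 6.46 and 7.34 in P10 mutants, 5.01, 6.61 and 8.24 in P15 controls and 7.92, 8.41 and 9.40 in P15 mutants. The P10 groups were separate, the P15 controls spread widely and reached into the mutants, and the effect reversed from -1.79 (limma adjusted p = 0.0098) to 2.01 (limma adjusted p = 0.0034), a difference of 3.80 (SE 0.67, limma adjusted p = 0.0019). Lce3c was 6.03-fold lower in P10 mutants, with undetected arrays set as above, and its effects of -2.68 and 1.23 differed with a limma adjusted p of 0.0019. These 4 were the members called among 18 Lce and Sprr genes. Psca, a surface protein of epithelia, disappeared from -0.78 to 0.56 (limma adjusted p = 0.012). None of 18 suprabasal and cornification genes passed, beside 3.9% of all genes, and their median difference was -0.14.

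Among epidermal stress and antimicrobial genes, Defb4, Defb14, Lcn2 and Chil1 differed between the ages, with a greater excess in P15 mutants. Defb14, an antimicrobial peptide, was at 4.61, 4.68 and 4.79 in P10 controls, 5.07, 5.24 and 5.47 in P10 mutants, 4.69, 4.79 and 5.34 in P15 controls and 6.49, 7.86 and 8.79 in P15 mutants. It was detected in 0 of 6 controls at either age, 1 of 6 P10 mutants and 5 of 6 P15 mutants, so its P10 values were mostly background. P15 mutants were 3.24-fold higher with undetected arrays set as above (difference between ages limma adjusted p = 1.5e-05, fitted on values that include background). Defb4 was detected in 0 of 6 controls at either age, 4 of 6 P10 mutants and 6 of 6 P15 mutants. Mutants exceeded controls 1.74-fold at P10 with undetected arrays set as above, and at least 5.68-fold at P15 (difference limma adjusted p = 0.0013). The call of Defb4 ended with median scaling. Lcn2, which withholds iron from bacteria, was at 5.47, 5.87 and 6.47 in P10 controls, 6.44, 6.93 and 7.18 in P10 mutants, 7.08, 7.13 and 7.66 in P15 controls and 9.78, 10.04 and 11.02 in P15 mutants. It was detected in 3 of 6 P10 controls and on all arrays of the other groups, all P15 mutants were far above the P15 controls, and the excess grew from 1.00 to 2.98 (difference 1.98, SE 0.28, limma adjusted p = 0.00023).

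Chil1, a chitinase-like protein of inflamed tissue, grew from 1.01 to 2.83 (limma adjusted p = 0.0012), with separate groups at both ages. These 4 were the genes called among 19 epidermal stress and antimicrobial genes (21.1%), beside 3.9% of all genes. The list's median effect was 0.50 at P10 and 0.72 at P15. Krt6a (0.53 and 0.00), Krt6b (0.50 and 0.72) and Krt16 (-0.12 and 0.39), keratins of stressed epidermis, did not pass. Of 14 chemokines 3 (21.4%) passed, all upward, beside 1.93% of all genes. Cxcl1, which attracts neutrophils, was at 4.82, 5.06 and 5.52 in P10 controls, 5.35, 5.98 and 6.13 in P10 mutants, 4.62, 4.90 and 5.26 in P15 controls and 6.88, 7.53 and 8.20 in P15 mutants. It was detected in 0 of 6 controls at either age, 3 of 6 P10 mutants and 6 of 6 P15 mutants, which were at least 2.45-fold higher (difference limma adjusted p = 4e-05). Cx3cl1 (0.05 and 1.28) and Cxcl16 (0.11 and 0.84), chemokines anchored in the membrane, appeared as higher (limma adjusted p = 0.003 and 0.0032). The 12 macrophage genes, 4 T cell genes and 18 interferon response genes tested had 0 called, beside 3.9% of all genes. Only 1 of 10 listed neutrophil genes was bright enough to be tested.

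**Figure D4:**
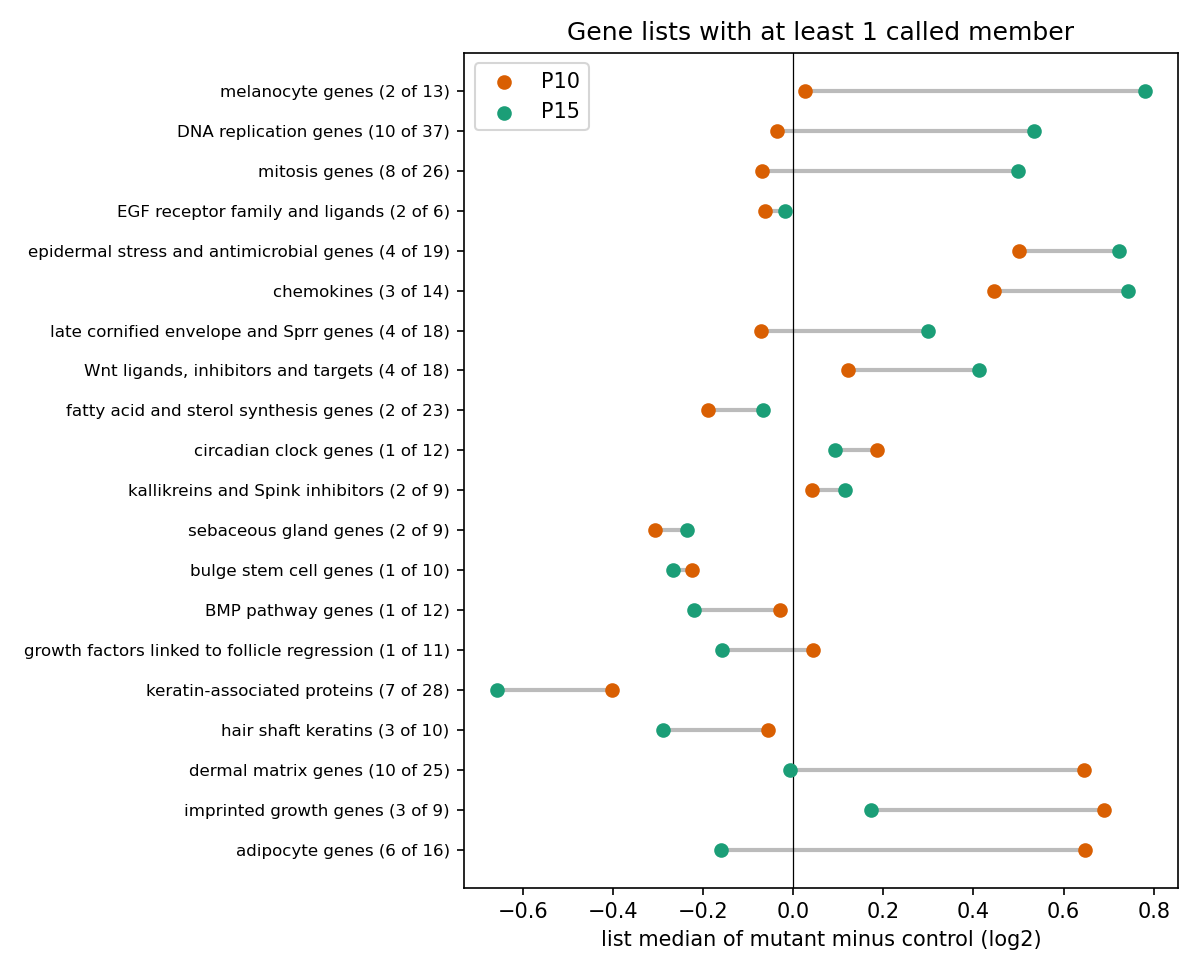
The x axis gives each list's median mutant effect (log2) at P10 and at P15, for the 20 lists with at least 1 called gene, and the counts beside the names are called genes of genes tested. Melanocyte, DNA replication and mitosis genes lie near 0 at P10 and between 0.50 and 0.78 at P15, while dermal matrix and adipocyte genes lie near 0.65 at P10 and at or below 0 at P15.

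Of 6 genes of the EGF receptor family and its ligands, a receptor that signals through Gab1, 1 passed upward and 1 downward, and 5 of the 6 differences were positive. Epgn, epigen, was at 9.19, 9.45 and 10.23 in P10 controls, 9.26, 9.55 and 9.93 in P10 mutants, 8.70, 8.80 and 9.05 in P15 controls and 9.35, 9.83 and 10.21 in P15 mutants. Its P15 groups were separate and its P10 groups were not, and its effect went from -0.02 to 0.99 (difference 1.01, SE 0.19, limma adjusted p = 0.0032). Btc, betacellulin, went from -0.05 to -1.09 (limma adjusted p = 0.047), a call that ended on leaving out any of 22 arrays (limma adjusted p from 0.0506 to 0.0908), all but P10 control 1, P10 mutant 3, P15 controls 1 and 2 and P15 mutants 1 and 3. The call of Btc also ended with the authors' values, without the filter on dim probes, without the slide term and with either covariate. The 9 ERK feedback inhibitors and targets, 10 immediate early genes and 10 docking proteins and partners of Gab1 that were tested had 0 called, and their median differences were 0.06, -0.01 and -0.02. Nor did any of 72 respiratory chain genes (median -0.08), 54 ribosomal protein genes (median 0.12), 13 endothelial genes, 9 Schwann cell genes, 4 Hedgehog pathway genes or 7 MHC class II genes pass. Beside 3.9% of all genes, a count of 0 in the short lists says little.

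Further genes had large differences outside these groups. Pacsin1, a membrane-bending protein best known from neurons, was at 5.35, 6.04 and 6.57 in P10 controls, 6.04, 6.19 and 6.59 in P10 mutants, 7.55, 7.98 and 8.15 in P15 controls and 6.03, 6.18 and 6.45 in P15 mutants. Pacsin1 was above background in 4 of 6 P10 controls and 4 of 6 P15 mutants and on all arrays of the other groups. It rose 3.01-fold with age in controls, P15 mutants lay below every P15 control and within the range of the P10 controls, and the effect went from 0.28 to -1.67 (difference -1.95, SE 0.24, limma adjusted p = 2.5e-05). Prss27, an epithelial serine protease, was at 7.77, 8.33 and 8.58 in P15 controls and 8.96, 9.43 and 9.84 in P15 mutants, and its effect went from -0.19 to 1.17 (limma adjusted p = 0.0019). Tmem45b, a membrane protein, went from 0.00 to -1.45 (limma adjusted p = 0.013) with separate groups at P15, and Cpz, a carboxypeptidase that binds Wnt proteins, from 0.58 to -1.03 (limma adjusted p = 0.011), detected in 3 of 6 P15 mutants. Spink6, an inhibitor of skin kallikreins, was detected in 5 of 6 P10 controls, 4 of 6 P10 mutants, 6 of 6 P15 controls and 0 of 6 P15 mutants, which were at least 1.98-fold lower (difference limma adjusted p = 0.0095). Its call ended with median scaling and without the slide term.

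Among genes that reversed from lower to higher, Tagln, an actin-binding protein of smooth muscle, went from -0.73 to 0.71 (limma adjusted p = 0.0031) with separate groups at P10 and detection in 3 of 6 P15 controls, and Kng1, the precursor of kinins, from -0.59 to 0.63 (limma adjusted p = 0.0099). Mboat1, a phospholipid acyltransferase, reversed from -0.56 to 0.38 (limma adjusted p = 0.0016), and Prxl2b, a peroxiredoxin-like enzyme, from 0.72 to -0.39 (limma adjusted p = 0.00054). Klk15, Krt15, Krt79, Acsbg1, Sqle, Scd1, Nr1d1, Pyy, Gnmt, Stbd1 and H3c1 also passed, with limma adjusted p-values between 0.0237 and 0.0495. Each of those 11 calls ended on leaving out any of between 2 and 19 of the 28 arrays, with adjusted p-values from 0.0503 to 0.0993. They include the only called members of the bulge stem cell, clock, sebaceous gland and fatty acid and sterol synthesis lists, and no direction is drawn from them.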

How the data were processed

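The authors deposited, per the file headers, a scanner table with a mean bead intensity and a detection p-value for each probe and array, and a table of processed intensity values, 25.6% of them below 0. The submitters' processing notes name GenomeStudio, with no version. Intensities were corrected and normalized here with limma's neqc (normexp from the detection p-values, offset 16, quantile, log2), so the log2 values were made from the deposited intensity. Probes with a detection p below 0.01 on at least 6 of 28 arrays were kept (12834 of 25697), and the brightest stood for each gene, giving 9045 genes named by the platform annotation. Limma 3.58.1 in R 4.3.3 fitted 4 groups and 4 slides (21 residual degrees of freedom), with Benjamini-Hochberg adjustment over all genes and a threshold of 0.05. Array number limits precision. The interaction test was tested on simulated data. The most alike replicate arrays, a pair of P10 mutants, correlated at 0.995 against a median of 0.987 in that group, and each array was counted separately.

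The members, gene lists and tests were chosen with earlier results of these data known. Genes were named by rule: the 5 largest differences in each of 6 patterns among genes detected on at least 3 of 6 arrays (5 of 10) in every group, the 4 largest in each direction among genes undetected in a whole group, up to 3 called members of each list by p, and Gab1. Other members of the lists are given as counts or as values beside them, and Bmpr1b, Dcn and the members in brackets were picked after their values were seen. Alternatives covered scaling, the authors' values, probe filters and averaging, the slide term, array weights, slide pairs, covariates, a replicate block and leaving out each array. Promoter windows came from RefSeq, GRCm38.p6.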

Additional observations from a re-analysis of the deposited data

Results flagged for a closer look

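The mutant effect differed between P15 and P10 for 353 genes by the limma interaction, the test of the difference itself. Among the named genes, 13 of 300 groups held 1 array far from the rest by Dixon's criterion, where chance gives about 1 in 20. P10 mutant 4 was the highest for Adipoq (13.01, nearest array 12.49) and Krt79 (11.26, nearest 11.12) and the lowest for Mlana (10.73, nearest 11.27). P15 mutant 1 was the lowest for Lep (6.421, nearest 9.108) and Matn4 (5.991, nearest 7.354), P15 mutant 2 for Rspo3 (4.987, nearest 6.259) and P15 mutant 5 for Mcm5 (9.967, nearest 10.87). Among P15 controls, replicate 6 was lowest for Chrd (5.979, nearest 6.456), replicate 5 was lowest for Nnat (6.76, nearest 7.001) and replicate 4 was highest for Mcm4 (11.1, nearest 10.81). Among P10 controls, replicate 7 was highest for Myl4 (10.22, nearest 8.963), replicate 6 for Defb4 (5.312, nearest 4.925) and replicate 2 for Pyy (4.966, nearest 4.745), the last 2 on arrays where the probe was not detected.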

How the results depend on the processing

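No named gene changed the sign of a called difference under any alternative run, and 59 of 74 kept the call on leaving out each array in turn. Of the 74 calls, 46, 18, 52 and 39 ended on slides 1 and 3, 1 and 4, 2 and 3, and 2 and 4 alone, 20 without the slide term, 11 without the probe filter, 10 with median scaling, 9 with a random block, 7 with the detected-probe covariate, 6 with the muscle covariate, 6 with averaged probes, 5 with the authors' values and 0 with array weights or the replicate block. Of the 43 detected on all arrays, 0 ended. The calls of Bmp3, Cxcl1, Defb14, Lcn2, Nnat, Pacsin1, Sprr2d and Sprr2f held in every alternative in which they were tested. Leaving out each array gave 228 to 611 genes that differed between ages, 110 to 339 higher and 118 to 272 lower, 126 to 286 that appeared, 52 to 218 that disappeared and 14 to 44 that reversed. It gave 1523 to 2523 genes changed with age in controls and 799 to 1725 in mutants, and Gab1 effects of -1.36 to -1.24 at P10, -1.39 to -1.28 at P15 and -0.09 to 0.03 for the difference. Median scaling, which moved the median of all genes at P10 to -0.12, gave 175 that disappeared and 40 that reversed. Probes detected on all arrays left 118 lower. Without the slide term 221 differed, 103 lower, 108 appeared, 17 reversed, and 3677 and 4112 changed with age in controls and mutants. With the slide as a random block 2266 changed with age in mutants. Array weights gave 1481 (809 higher, 672 lower), with 364, 836 and 115 that appeared, disappeared and reversed and 2304 changed with age in mutants. Slides 1 and 3 alone gave 126 (66 higher, 60 lower), 55 that appeared, 45 that disappeared and 1219 changed with age in controls. Slides 1 and 4 gave 1308 (673 higher, 635 lower), 833 that disappeared, 84 that reversed and 1983 changed with age in mutants. Slides 2 and 3 gave 66 (17 higher, 49 lower, so 25.8% higher against 49.6%), with 34, 24 and 5 that appeared, disappeared and reversed and 981 and 515 changed with age in controls and mutants. Slides 2 and 4 gave 159 (74 higher, 85 lower), with 85, 52 and 14, and 1329 and 563. The muscle covariate left 637 changed with age in mutants, and the number of detected probes as a covariate, chosen after seeing the data, left 578 and a total of 274 that differed. The fits to a pair of slides use fewer samples, and the cause of their shifts and of the others was not tested. With a replicate block, 362 differed, including all 353. The numbers were not taken as pairs, since residual correlations of same-numbered arrays ranged from -0.20 to 0.40.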

Other observations

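Several genes outside the lists and the naming rule are given singly here. They were chosen after their values were seen, so nothing is drawn from them about a gene group. Krt42, a type I keratin, had the smallest p of the experiment. Its mean log2 signal was 6.61 ± 0.22 (SD, n = 6) in P10 controls, 7.83 ± 0.31 in P10 mutants, 7.12 ± 0.11 in P15 controls and 10.72 ± 0.34 in P15 mutants, and its excess in mutants was 1.22 at P10 and grew by 2.38 (limma adjusted p = 2.2e-06). Timp1, an inhibitor of matrix proteases, grew from 0.47 to 1.27 (limma adjusted p = 0.025).

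The effect of 2 replication-dependent histone genes appeared as higher, H2ac7 (-0.20 at P10 and 0.75 at P15, limma adjusted p = 0.0062) and H2ac10 (-0.07 and 0.79, limma adjusted p = 0.0076). Histone genes are close in sequence, so their probes may read each other's transcripts. Timeless, a replication fork protein, was at -0.27 and 0.68 (limma adjusted p = 0.0039) and Clspn, a checkpoint adaptor, at -0.31 and 0.60 (limma adjusted p = 0.0066). Mybbp1a, a nucleolar protein, went from -0.26 to 0.46 (limma adjusted p = 0.0039). Agpat2, an enzyme of triglyceride synthesis in fat, reversed from 0.44 to -0.67 (limma adjusted p = 0.0026), and Aebp1, a secreted protein that binds collagen, from 0.36 to -0.48 (limma adjusted p = 0.0019).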
